A study of Mus musculus with 9 samples.

Results

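The 10 genes described here belong to Wnt signalling in the fetal thymus: the ligand genes Wnt4, Wnt5a, Wnt5b and Wnt11, the target and feedback gene Axin2, the secreted inhibitor genes Sfrp1, Sfrp2, Dkk2 and Dkk3, and the Dickkopf receptor gene Kremen1. They were chosen by symbol. Each was taken at its transcript cluster, the set of probes that an array assigns to a gene, and all 10 had exactly 1 cluster, among 19505 symbols measured. RNA came from thymic lobes of C57BL/6 embryos at e13.5, and Clariom S arrays were hybridised with 9 samples, 3 per genotype. The genotypes were wild type (wt), Foxn1933/1089, which carries a different mutant Foxn1 allele on each chromosome (called Foxn1 mutant here), and Tbx1neo2/neo2, which carries neo2 alleles of Tbx1 on both chromosomes (Tbx1 mutant). No treatment or driver line was named for any group. The labels do not say whether a sample was a single embryo or a pool, or whether samples of a genotype were separate embryos, so the p-values measure the spread between these samples only. All values are log2 expression values as deposited, and a cluster's level is compared across arrays but not with the level of another cluster.

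Wnt ligands are secreted glycoproteins that bind Frizzled receptors together with the coreceptors Lrp5 and Lrp6. In the beta-catenin branch this stabilises beta-catenin, which acts with Tcf and Lef factors on target genes, while ligands such as Wnt5a and Wnt11 are known mainly for branches that do not use beta-catenin. Sfrp proteins bind Wnt ligands outside the cell, and Dickkopf proteins of the Dkk1 and Dkk2 kind bind Lrp5 and Lrp6 together with Kremen proteins. In the thymus, Wnt ligands made by epithelium and mesenchyme are known to act on thymic epithelial cells and on Foxn1 expression, and Kremen1 is known to shape the thymic epithelial network.

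The median of the 5222 negative-control features lay between 4.27 and 4.94 on the 9 arrays and their 95th percentile between 8.03 and 9.70. What these features match was not checked, so their median serves below only as a reference level on each array. In the targeted genes themselves, Foxn1 differed from wild type by -0.24 ± 0.62 in the Foxn1 mutants and Tbx1 by 0.28 ± 0.41 in the Tbx1 mutants (SE, n = 3 per genotype; limma adjusted p = 1.00 for both), so their levels do not check the labels. Parathyroid markers (3 measured of 4) averaged 5.37 to 5.92 on the Tbx1 mutant arrays and 11.03 to 13.60 in wild type. A pair of arrays stood apart. On wt replicate 1 and Foxn1 mutant replicate 2, the mean of the 9 thymic epithelium markers was 6.88 and 7.20 (9.57 to 10.30 elsewhere), with Psmb11 and Prss16 under the negative-control median on both, and the mean of the 6 measured leukocyte markers was 4.76 and 4.56 (7.72 to 9.89 elsewhere). The neuron markers averaged 12.22 on wt replicate 1 (5.58 to 6.12 elsewhere), the heart muscle markers 8.25 on Foxn1 mutant replicate 2 (3.74 to 5.11 elsewhere) and the skeletal muscle markers 9.61 on wt replicate 2 (4.84 to 6.86 elsewhere). Each sample title includes 1 of 3 date codes of unstated meaning, written below as A, B or C, and each code has 1 wild type array. The Foxn1 mutants are in A (replicate 2) and B (the others), the Tbx1 mutants in A (replicate 1) and C (the others), and wild type replicates 1, 2 and 3 in C, B and A.

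The stretches just upstream of the annotated starts are shown for 4 of the genes: Axin2 as the target gene, Sfrp2 as the gene with the widest spread across arrays, Dkk2 as a Dickkopf gene that was high on the arrays that stood apart, and Wnt11 as a ligand gene that stayed under the negative-control median. Sequences are RefSeq's for GRCm38.p6, where 6 of the 10 genes had an entry, and each is the 250 bases before the start, 5′ to 3′ on the gene's strand. Capitals mark the matches, on either strand, to the Tcf/Lef core CTTTGA, the FOXN1 core GACGC and the TATA box TATAAA. All 4 lie on the + strand: Axin2 at chr11:108920099-108920348, Sfrp2 at chr3:83766071-83766320, Dkk2 at chr3:132085042-132085291 and the first of 2 Wnt11 starts at chr7:98834862-98835111.
Axin2: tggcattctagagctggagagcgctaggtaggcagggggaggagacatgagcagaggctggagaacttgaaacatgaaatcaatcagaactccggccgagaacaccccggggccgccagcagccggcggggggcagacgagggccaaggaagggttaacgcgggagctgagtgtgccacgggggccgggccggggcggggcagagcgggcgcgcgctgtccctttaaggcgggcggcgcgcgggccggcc
Sfrp2: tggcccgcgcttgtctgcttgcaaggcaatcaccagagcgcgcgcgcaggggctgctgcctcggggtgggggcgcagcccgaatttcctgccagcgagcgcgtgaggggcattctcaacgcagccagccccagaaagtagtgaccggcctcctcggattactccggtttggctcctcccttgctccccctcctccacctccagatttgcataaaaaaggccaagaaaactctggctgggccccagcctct
Dkk2: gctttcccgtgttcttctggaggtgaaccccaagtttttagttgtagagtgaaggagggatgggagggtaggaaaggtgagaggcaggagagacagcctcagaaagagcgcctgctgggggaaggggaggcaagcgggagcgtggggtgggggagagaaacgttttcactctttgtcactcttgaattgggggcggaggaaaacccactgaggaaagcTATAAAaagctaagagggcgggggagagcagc
Wnt11: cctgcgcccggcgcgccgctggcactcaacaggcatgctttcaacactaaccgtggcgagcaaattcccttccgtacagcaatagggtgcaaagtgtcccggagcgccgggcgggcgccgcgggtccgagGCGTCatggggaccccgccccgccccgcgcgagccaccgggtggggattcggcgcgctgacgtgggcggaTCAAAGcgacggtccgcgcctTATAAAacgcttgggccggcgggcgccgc
In these windows Axin2 and Sfrp2 held 0 matches, Dkk2 held a TATA box 32 to 27 bases before the start, and Wnt11 held a FOXN1 core at 120 to 116 bases, a Tcf/Lef core at 50 to 45 bases and a TATA box at 29 to 24 bases. The windows differed in composition, with 24 CpG dinucleotides in the window of Axin2, 16 in that of Sfrp2, 7 in that of Dkk2 and 37 in that of Wnt11. Of 32851 windows of this length before all annotated starts, 13.8% held the Tcf/Lef core, 22.6% the FOXN1 core and 12.4% the TATA box. The motifs do not overlap in letters, and a match is a description of sequence only. Wnt4 and Wnt5b also had entries, and of the 3 Wnt5b starts 1 held 2 FOXN1 cores and another held a Tcf/Lef core.

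The ligand genes read near or under the negative controls. Wnt11 was under the negative-control median on 9 of 9 arrays, at 3.22, 3.05 and 3.46 on the wt arrays, 3.44, 3.29 and 2.88 on the Foxn1 mutant arrays and 3.00, 3.21 and 3.21 on those of the Tbx1 mutants. Wnt5b was also under it on 9 of 9 arrays, at 3.01, 3.05 and 3.35 on the wt arrays, 3.74, 4.08 and 2.87 on the Foxn1 mutant arrays and 3.90, 3.00 and 2.97 on those of the Tbx1 mutants. Between 10.5% and 38.0% of the negative-control features on the same array read lower than these clusters, so no difference between genotypes is given for either gene. Wnt4, a ligand known from thymic epithelium, exceeded that median on 8 of 9 arrays but by a small margin, at 4.77, 4.68 and 4.95 on the wt arrays, 5.12, 4.88 and 4.84 on the Foxn1 mutant arrays and 5.13, 5.20 and 4.75 on those of the Tbx1 mutants. Its 9 values spanned 0.52 and the genotypes overlapped.

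Wnt5a, known for branches without beta-catenin, exceeded the negative-control median on 8 of 9 arrays. Its values were 5.96, 5.52 and 4.69 on the wt arrays, 5.53, 5.73 and 4.71 on the Foxn1 mutant arrays and 4.80, 4.95 and 4.42 on those of the Tbx1 mutants. The mean was 4.73 ± 0.27 for the Tbx1 mutants, 5.32 ± 0.54 for the Foxn1 mutants and 5.39 ± 0.65 for wild type (SD, n = 3). In both of the other genotypes the lowest array, wt replicate 3 and Foxn1 mutant replicate 3, lay within the range of the Tbx1 mutants. Set against wild type, the Tbx1 mutants differed by -0.66 ± 0.37 (SE; 95% interval -1.5 to 0.17; limma adjusted p = 1.00). It was -0.37 without wt replicate 1 and -1.01 without wt replicate 3, and it was 0.12 within date code A and -1.27 within code C.

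Axin2, which encodes a scaffold of the beta-catenin destruction complex and is widely read as a target of the beta-catenin branch, was above the negative-control median on all 9 arrays, and its genotypes overlapped. It read 5.66, 5.77 and 5.66 on the wt arrays, 5.29, 5.96 and 6.26 on the Foxn1 mutant arrays and 5.85, 5.89 and 5.46 on those of the Tbx1 mutants. The lowest and the highest array were both Foxn1 mutants, replicates 1 and 3, and the wild type arrays lay between them. The difference from wild type was 0.14 ± 0.27 in the Foxn1 mutants (95% interval -0.45 to 0.74) and 0.04 ± 0.27 in the Tbx1 mutants (-0.56 to 0.63; SE, n = 3 per genotype; limma adjusted p = 1.00 for both). These intervals leave room for a change of about 0.7 on the log2 scale at this number of arrays.

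**Figure D1:**
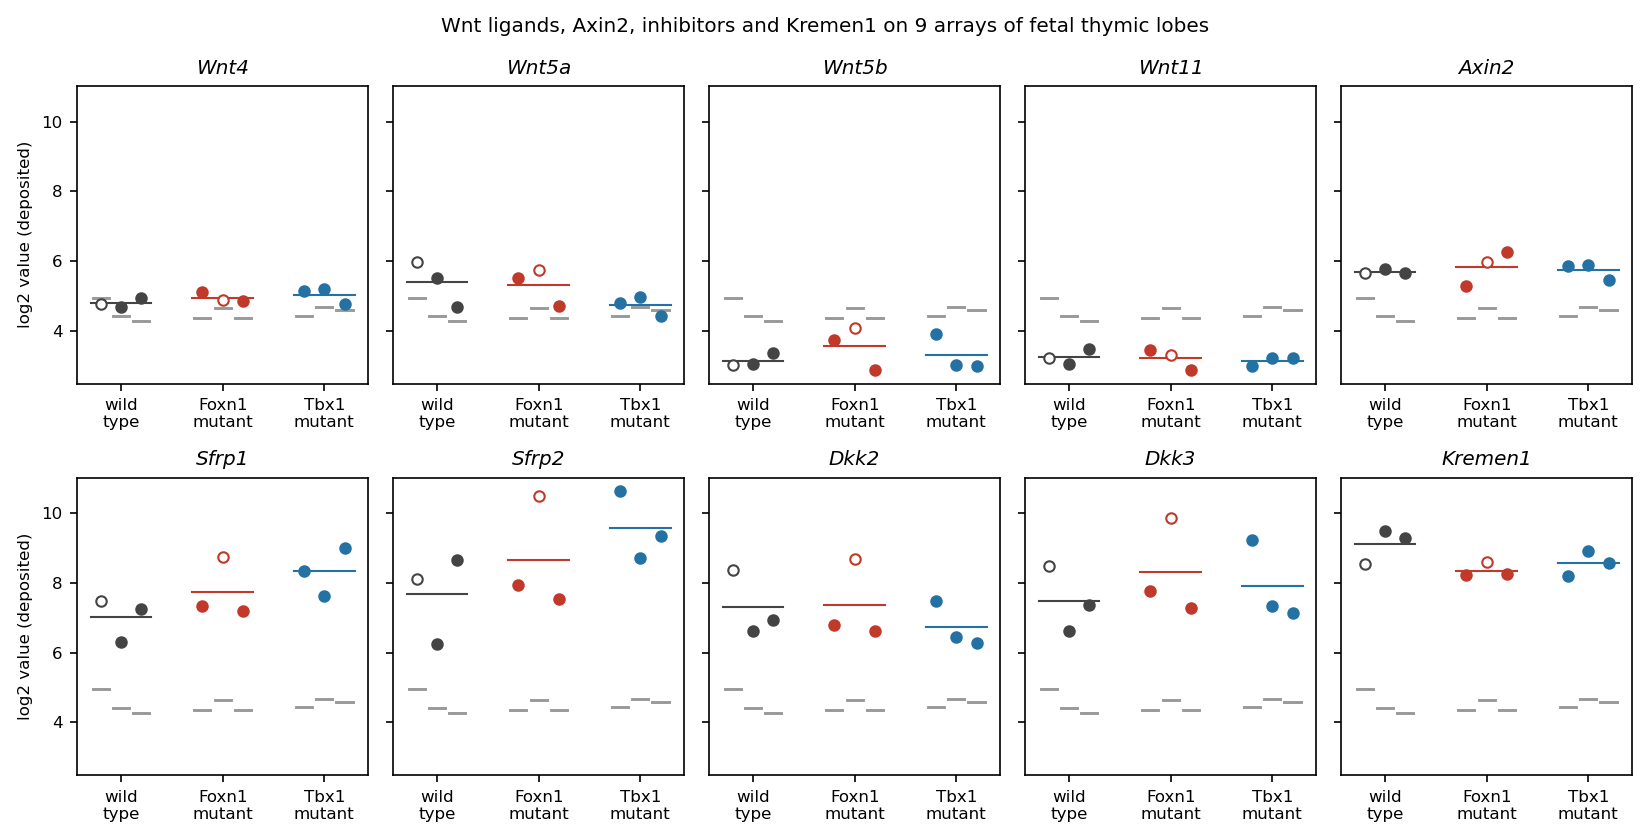
Log2 values of the 10 genes on the 9 arrays, with a panel for each gene and the genotypes along the x axis. Points are arrays in replicate order, open points are wt replicate 1 and Foxn1 mutant replicate 2, coloured lines are genotype means and grey ticks are the negative-control median of each array. Wnt5b and Wnt11 lie under the ticks on 9 of 9 arrays. Sfrp1 and Sfrp2 in the Tbx1 mutants lie above all wild type arrays, as do 5.18% of all clusters.

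The secreted Frizzled-related protein genes Sfrp1 and Sfrp2 were higher on every Tbx1 mutant array than on any wild type array. This also held for 5.18% of all clusters, and neither gene passed the test over all clusters. Sfrp2 read 8.12, 6.26 and 8.65 on the wt arrays, 7.94, 10.49 and 7.53 on the Foxn1 mutant arrays and 10.64, 8.72 and 9.35 on those of the Tbx1 mutants. The lowest Tbx1 mutant array, 8.72, stood just above the highest wild type array, 8.65, and the Foxn1 mutants spread over both ranges. Its mean was 7.68 ± 1.26 in wild type, 8.65 ± 1.60 in the Foxn1 mutants and 9.57 ± 0.98 in the Tbx1 mutants (SD, n = 3), and neighbouring means in this order differed by less than the SD of wild type. Set against wild type, the Tbx1 mutants differed by 1.89 ± 0.86 (SE; 95% interval -0.05 to 3.83; limma adjusted p = 1.00). Only 0.675% of all clusters had a larger absolute difference in this comparison, but the residual SD of Sfrp2 within genotypes, 1.31, was also larger than that of 97.8% of clusters.

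Sfrp1 followed the same order. It read 7.47, 6.31 and 7.25 on the wt arrays, 7.33, 8.75 and 7.18 on the Foxn1 mutant arrays and 8.35, 7.63 and 9.02 on those of the Tbx1 mutants. Its lowest Tbx1 mutant array, replicate 2 at 7.63, lay above the highest wild type array, replicate 1 at 7.47. The mean was 7.01 ± 0.62 in wild type, 7.75 ± 0.86 in the Foxn1 mutants and 8.33 ± 0.69 in the Tbx1 mutants (SD, n = 3). Set against wild type, the Tbx1 mutants differed by 1.32 ± 0.50 (SE; 95% interval 0.19 to 2.45; limma adjusted p = 1.00), and the Foxn1 mutants differed by 0.74 ± 0.50 (-0.39 to 1.87; limma adjusted p = 1.00).

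Wild type replicate 2 was the lowest of the 9 arrays for both Sfrp genes. Without it, the Tbx1 mutants differed from wild type by 1.18 for Sfrp2 and 0.97 for Sfrp1. Within date code A, with 1 array of each genotype, the same difference was 1.99 for Sfrp2 and 1.10 for Sfrp1. Within code C, with 2 Tbx1 mutant arrays and 1 wild type array, it was 0.91 and 0.86. Its sign could not turn within a code, since every Tbx1 mutant array lay above every wild type array for both genes. Set against wild type, the Foxn1 mutants differed by 0.98 ± 0.86 for Sfrp2 (SE, n = 3 per genotype; limma adjusted p = 1.00), and without Foxn1 mutant replicate 2 this difference was 0.06 for Sfrp2 and 0.25 for Sfrp1. Without the pair of arrays that stood apart, the Tbx1 mutants differed from wild type by 1.55 ± 0.42 for Sfrp1 and 2.12 ± 0.72 for Sfrp2 (SE; limma adjusted p = 0.403 and 0.489). With the date code as a fixed block the 2 mutants differed from wild type by similar amounts, 1.5 for the Foxn1 and 1.37 for the Tbx1 mutants in Sfrp2, and the sign of their difference from each other turned (0.14 for Sfrp2 and 0.28 for Sfrp1, against -0.92 and -0.58 without the block).

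Mesenchyme markers were also higher in the mutants on average, with 0 of them called. The mean of the 7 measured mesenchyme markers of 8 was 11.62 to 12.15 on the wild type arrays, 12.26 to 13.35 on the Foxn1 mutants and 12.39 to 12.75 on the Tbx1 mutants, and all 7 were above the negative-control median on every array. Of the 7, 6 were higher in the Tbx1 mutants than in wild type (median difference 1.03) and 7 were higher in the Foxn1 mutants (median 0.86). Red cell markers (4 measured of 5) were lower in the mutants on average, also with 0 of them called. Their means were 11.62 to 14.62 on the wild type arrays, 10.99 to 12.55 on the Foxn1 mutants and 10.85 to 12.33 on the Tbx1 mutants. The lowest wild type array, replicate 2, lay within both mutant ranges. In either mutant 0 of 4 were higher (median differences -2.05 and -1.84). The part of either list in the Sfrp differences was not tested. In whole lobes, a change in the number of cells of a type cannot be told apart from a change in RNA per cell.

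**Figure D2:**
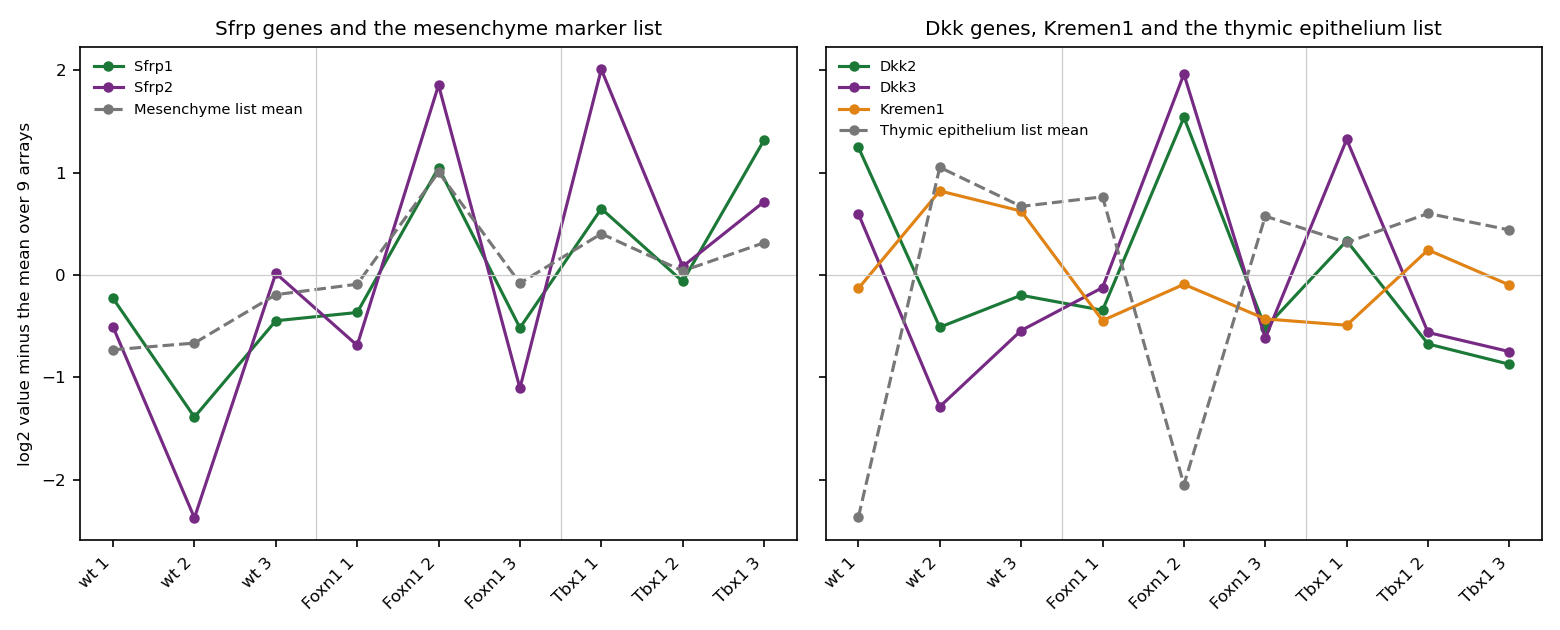
Log2 value minus the mean over the 9 arrays, for Sfrp1 and Sfrp2 with the mean of the mesenchyme markers (left) and for Dkk2, Dkk3 and Kremen1 with the mean of the thymic epithelium markers (right). Lines only join the arrays of a gene, and vertical lines part the genotypes. Dkk2 and Dkk3 are high on wt replicate 1 and Foxn1 mutant replicate 2, where the epithelial markers are low. Dkk3 is also high on Tbx1 mutant replicate 1, at 9.22, where the mean of the epithelial markers is 9.57. Kremen1 on wt replicate 1 and Foxn1 mutant replicate 2, at 8.55 and 8.59, is within its range elsewhere, taken over all genotypes.

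The Dickkopf gene Dkk2, whose product binds the Lrp5 and Lrp6 coreceptors, was highest on the arrays that stood apart and lay between 6.26 and 7.47 on the others. It read 8.38, 6.62 and 6.94 on the wt arrays, 6.79, 8.68 and 6.62 on the Foxn1 mutant arrays and 7.47, 6.46 and 6.26 on those of the Tbx1 mutants. The 2 highest values, 8.68 and 8.38, belonged to Foxn1 mutant replicate 2 and wt replicate 1. Over all 9 arrays the difference from wild type was 0.05 ± 0.63 in the Foxn1 mutants and -0.58 ± 0.63 in the Tbx1 mutants (SE, n = 3 per genotype; limma adjusted p = 1.00 for both). Without the pair of arrays, the difference from wild type was -0.08 ± 0.38 and -0.05 ± 0.35. Neuron markers were high on the first of these arrays and heart muscle markers on the other, and their part in the Dkk2 values was not tested.

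Dkk3, a divergent family member whose product is not known to act through Lrp5 and Lrp6 in the way of Dkk1, shared these high arrays and added Tbx1 mutant replicate 1. It read 8.50, 6.61 and 7.36 on the wt arrays, 7.78, 9.86 and 7.28 on the Foxn1 mutant arrays and 9.22, 7.34 and 7.15 on those of the Tbx1 mutants. Each genotype held 1 array more than 1 log2 unit above its other arrays, and the 3 genotypes overlapped. Set against wild type, the Foxn1 mutants differed by 0.82 ± 0.78 (SE; 95% interval -0.93 to 2.56; limma adjusted p = 1.00), and by 0.04 without Foxn1 mutant replicate 2. Set against wild type, the Tbx1 mutants differed by 0.42 ± 0.78, with 1.87 within date code A and -1.25 within code C, and no direction can be given for it.

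Kremen1, the transmembrane receptor that binds Dickkopf proteins and removes Lrp6 from the cell surface, was the only one of the 10 genes with a negative difference from wild type larger than 0.5 in both mutants. It read 8.55, 9.50 and 9.30 on the wt arrays, 8.23, 8.59 and 8.25 on the Foxn1 mutant arrays and 8.19, 8.92 and 8.58 on those of the Tbx1 mutants. Wild type replicates 2 and 3 lay above all 6 mutant arrays, and wt replicate 1 lay among them. The mean was 8.36 ± 0.20 for the Foxn1 mutants, 8.56 ± 0.37 for the Tbx1 mutants and 9.12 ± 0.50 for wild type (SD, n = 3). The difference from wild type was -0.76 ± 0.30 in the Foxn1 mutants (SE; 95% interval -1.42 to -0.10; limma adjusted p = 1.00) and -0.55 ± 0.30 in the Tbx1 mutants (-1.22 to 0.11; limma adjusted p = 1.00). The mutants differed from each other by -0.21 ± 0.30, within the spread of the Tbx1 mutants.

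The Kremen1 values depended on which wild type arrays were compared. Without wt replicate 1 the difference from wild type was -1.05 in the Foxn1 mutants and -0.84 in the Tbx1 mutants, and without wt replicate 2 it was -0.57 and -0.36. Without both arrays that stood apart, the Foxn1 mutants differed from wild type by -1.16 ± 0.27 (SE; limma adjusted p = 0.870) and neither mutant overlapped wild type. With these arrays left out, 34.9% of all clusters did not overlap between Foxn1 mutants and wild type (17.1% lower) and 25.1% between Tbx1 mutants and wild type (13.6% lower). Within the date codes, Foxn1 mutants differed from wild type by -0.72 in code A and -1.26 in code B, while Tbx1 mutants differed by -1.12 in code A and by 0.20 in code C, where the wild type array is replicate 1. The thymic epithelium marker mean was 6.88 to 10.30 in wild type, 7.20 to 10.01 in the Foxn1 mutants and 9.57 to 9.85 in the Tbx1 mutants, over 9 measured markers of 9. Where this mean was at its lowest, on wt replicate 1 and Foxn1 mutant replicate 2, Kremen1 read 8.55 and 8.59. Over all genotypes the other arrays ran from 8.19 to 9.50. Within genotypes, 8.55 was the lowest wild type value and 8.59 the highest Foxn1 mutant value. Any tie of Kremen1 to these markers was not tested.

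**Figure D3:**
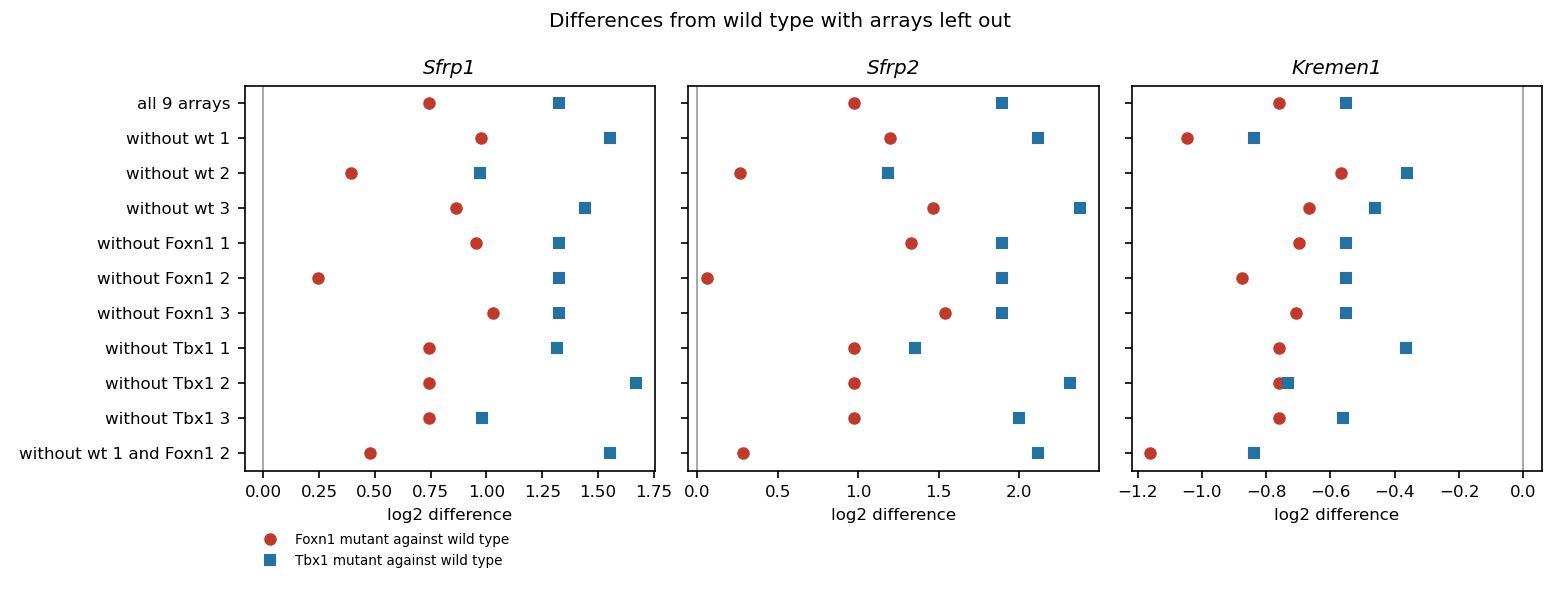
Log2 difference from wild type of Sfrp1, Sfrp2 and Kremen1 with all 9 arrays and with arrays left out (rows), for Foxn1 mutants (circles) and Tbx1 mutants (squares). No point crosses 0, but those of Sfrp1 and Sfrp2 in the Tbx1 mutants could not, as their arrays did not overlap wild type. The Foxn1 mutant difference of Sfrp2 falls to 0.06 without Foxn1 mutant replicate 2. That of Kremen1 reaches -1.16 without both arrays that stood apart.

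Across the 3 comparisons, 0 of the 10 genes passed an adjusted p of 0.05 with limma. In all, 0% of the 22206 clusters passed between Foxn1 mutants and wild type, 0.0135% between Tbx1 mutants and wild type and 0% between the mutants. At an unadjusted p under 0.05, limma gave 1 of the 10 between Foxn1 mutants and wild type (Kremen1; 4.04% of all clusters), 1 of the 10 between Tbx1 mutants and wild type (Sfrp1; 3.79% of all clusters) and 0 of the 10 between the mutants (2.98% of all clusters). The test of any genotype difference (limma F test) called 0 of the 10 and 0.00901% of all clusters. Arrays did not overlap for 0 of the 10 genes between Foxn1 mutants and wild type, against 8.29% of all clusters (4.86% higher and 3.43% lower). They did not overlap for 2 of the 10 between Tbx1 mutants and wild type, Sfrp1 and Sfrp2, both higher, against 9.45% of all clusters (5.18% higher). Between the mutants it was 0 of the 10, against 8.92% (3.91% lower). With 10 genes, counts of 0 to 2 are too small to be read against these shares. The median difference of the 10 genes was 0.14 between Foxn1 mutants and wild type and 0.10 between Tbx1 mutants and wild type (0.02 and 0.01 over all clusters). Both comparisons use the same wild type arrays.

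**Figure D4:**
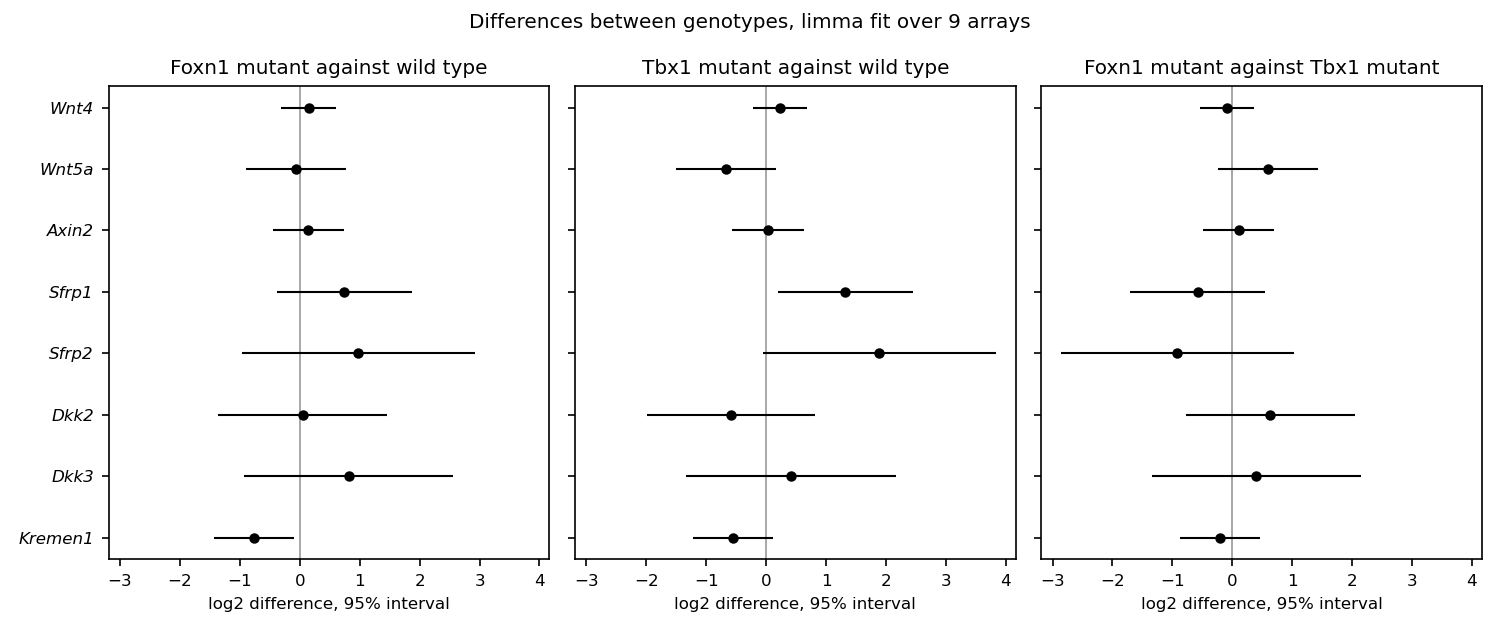
Log2 difference (x axis) with its 95% interval from the limma fit for the 8 genes that were above the negative-control median on any array, in the 3 comparisons. All intervals include 0 but those of Kremen1 between Foxn1 mutants and wild type (-1.42 to -0.10) and Sfrp1 between Tbx1 mutants and wild type (0.19 to 2.45), before any adjustment for multiple tests.

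The rest of the pathway was read from 8 lists by role that hold 102 genes, of which 97 had a cluster (Rnf43, Ctnnb1, Dvl2, Tcf7 and Ccnd1 were not matched by symbol). Of the 87 that are not among the 10 genes above, limma called 0 in each comparison, against the shares of all clusters given above, and at an unadjusted p under 0.05 there were 6, 8 and 1 (4.04%, 3.79% and 2.98% of all clusters). Arrays did not overlap for 6 genes higher and 3 lower between Foxn1 mutants and wild type (10.3% of the 87, against 8.29% of all clusters). Between Tbx1 mutants and wild type they did not overlap for 12 higher and 3 lower (17.2%, against 9.45%). Between the mutants it was 5 higher and 2 lower (8.05%, against 8.92%). Each of these counts includes genes that were under the negative-control median on all 9 arrays. Among them were Notum in every comparison and Lgr5 in those with wild type.

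Among all 19 Wnt ligand genes, 13 were under the negative-control median on all 9 arrays and 2, Wnt7a and Wnt2b, were above it on all 9. Wnt2b read 5.80, 5.24 and 5.53 on the wt arrays, 6.30, 7.45 and 5.67 on the Foxn1 mutant arrays and 7.41, 6.57 and 6.82 on those of the Tbx1 mutants. Its Tbx1 mutant arrays lay above all wild type arrays, with a difference of 1.41 ± 0.42 (SE, n = 3 per genotype; limma adjusted p = 1.00). Wnt7a read 6.23 to 7.04 in wild type, 6.25 to 8.0 in the Foxn1 mutants and 5.90 to 6.26 in the Tbx1 mutants. The secretion genes Wls, the carrier of Wnt ligands to the cell surface, and Porcn, the enzyme that attaches their lipid, differed from wild type by 0.50 ± 0.35 and 0.04 ± 0.23 in the Foxn1 mutants and by 0.49 ± 0.35 and 0.08 ± 0.23 in the Tbx1 mutants.

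Among the paralogs of the inhibitor genes, 0 were called. Frzb, also known as Sfrp3, read 7.19, 4.76 and 6.55 on the wt arrays, 5.57, 7.93 and 5.24 on the Foxn1 mutant arrays and 9.11, 6.19 and 6.52 on those of the Tbx1 mutants. Like Sfrp2, it was lowest on wt replicate 2 and highest on Tbx1 mutant replicate 1 and Foxn1 mutant replicate 2. Sfrp4 exceeded the negative-control median on 2 of 9 arrays and read 8.60 on wt replicate 2, the array with high skeletal muscle markers, against 2.67 to 5.24 elsewhere. Sfrp5 and Dkk4 were under the median on all 9 arrays, Dkkl1 was above it on 2, and Dkk1 and Kremen2 on 6. The list of 22 genes taken as inhibitors holds Sfrp1, Sfrp2, Dkk2, Dkk3 and Kremen1, and also Tmem59, whose role as an inhibitor was not tested. Between Tbx1 mutants and wild type, 3 of the 22 were higher without overlap (Shisa3, Sfrp1 and Sfrp2) and 1 lower (Notum). The shares of all clusters were 5.18% higher and 4.27% lower, and the median difference of the list was 0.07. Shisa3, whose product is known to hold back Frizzled maturation, read 7.69, 7.61 and 9.49 on the wt arrays, 9.33, 11.31 and 9.46 on the Foxn1 mutant arrays and 9.68, 9.74 and 9.80 on those of the Tbx1 mutants. The lysosomal and Golgi protein gene Tmem59 differed from wild type by 0.15 ± 0.23 and -0.01 ± 0.23 in the Foxn1 and Tbx1 mutants.

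Most receptor genes, 14 of 16, were above the negative-control median on all 9 arrays. Of the 16, 14 had a positive difference in the Foxn1 mutants (median 0.25) and 12 in the Tbx1 mutants (median 0.20), and the arrays of 2 and 4 receptor genes were higher without overlap, against 4.86% and 5.18% of all clusters. Fzd2 read 13.07 to 13.78 in wild type and 13.97 to 14.13 in the Tbx1 mutants, a difference of 0.58 ± 0.25. The Wnt5a receptor Ryk differed from wild type by 0.25 ± 0.21 in the Foxn1 mutants and 0.16 ± 0.21 in the Tbx1 mutants, and the coreceptor Lrp6, through which Kremen1 acts, by 0.32 ± 0.18 and 0.03 ± 0.18. Within the R-spondin axis, which controls how many Wnt receptors stay at the cell surface, Rspo3 read 8.80, 6.09 and 7.88 on the wt arrays, 8.19, 10.01 and 7.44 on the Foxn1 mutant arrays and 9.06, 8.08 and 9.02 on those of the Tbx1 mutants. Its receptor gene Lgr4 differed from wild type by -0.43 ± 0.30 and -0.54 ± 0.30, and the ubiquitin ligase gene Znrf3 by -0.29 ± 0.30 and -0.23 ± 0.30, in the Foxn1 and Tbx1 mutants.

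The intracellular relay and the target genes had medians near or under 0. All 15 measured relay genes were above the negative-control median on all arrays, and their median difference from wild type was -0.12 in the Foxn1 mutants and -0.04 in the Tbx1 mutants. The kinase genes Csnk1a1, Csnk1e and Gsk3b differed from wild type by -0.02 ± 0.20, -0.41 ± 0.39 and -0.19 ± 0.26 in the Foxn1 mutants. The 13 measured target genes, Axin2 among them, had medians of -0.11 and -0.08, with 5 and 6 of 13 positive, and the genotypes overlapped in Axin2, Myc and Tnfrsf19. Without overlap, 2 of the 13 were higher (Bambi and Notum) and 1 lower (Lgr5) in the Foxn1 mutants, and 1 was higher (Bambi) and 2 lower (Notum and Lgr5) in the Tbx1 mutants, against the shares of all clusters above. These were named after their values were seen, and Notum and Lgr5 were under the negative-control median on all 9 arrays. Myc, a growth regulator, read 8.83 to 10.25 in wild type, 8.51 to 9.57 in the Foxn1 mutants and 8.82 to 9.80 in the Tbx1 mutants. In the planar polarity branch the 12 genes had medians of 0.02 and 0.02, and its members Ptk7, Scrib and Vangl1 differed from wild type by 0.22 ± 0.39, -0.33 ± 0.24 and 0.24 ± 0.26 in the Foxn1 mutants.

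The genes whose profile over the 9 arrays was nearest were listed for each variable inhibitor gene, and the 4 lists shared 0 genes. Likeness was the root mean square (RMS) difference of values centred on each gene's mean, among 9656 other clusters with 1 symbol that were above the negative-control median on all arrays, for the 4 genes that spanned 2 log2 units or more. Nearest to Sfrp1 were Col1a1 and Col1a2, the chains of type I collagen, and Aebp1, a collagen-binding protein (Col1a1 is also in the mesenchyme list), at RMS differences of 0.18, 0.25 and 0.25, where the median cluster stood at 0.88. Nearest to Sfrp2 were the neurotrophin receptor gene Ntrk2, the metalloproteinase gene Mmp23 and the transcription factor gene Foxp2, at 0.38, 0.40 and 0.46 (median 1.37). Nearest to Dkk2 were the neuropeptide-processing enzyme gene Cpe, Cnrip1 and the synaptic adhesion gene Nlgn2, at 0.28, 0.29 and 0.30 (median 0.89). Nearest to Dkk3 were Pam, which encodes a peptide-amidating enzyme, the protease gene Adamts17 and the natriuretic peptide receptor gene Npr3, at 0.35, 0.42 and 0.43 (median 1.08). Between members, Dkk2 and Dkk3 differed by 0.52, and 1.25% of clusters were closer to Dkk2. Sfrp1 and Sfrp2 differed by 0.72 (10.7% were closer to Sfrp1), and Sfrp2 and Dkk3 by 0.84 (0.486% were closer to Sfrp2). Each share is counted from the gene named in it, so shares from different genes do not rank these likenesses. By RMS difference, Sfrp2 was nearer to Sfrp1 than to Dkk3. All of these values are descriptions over arrays that include the pair that stood apart.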

How the data were processed

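The authors deposited a table of log2 expression values for 9 Affymetrix Clariom S arrays; per the labels' protocols, RNA was amplified to cRNA and copied to single-stranded cDNA, which was fragmented and labelled with biotin. Software, normalization and genome build: not given in the sources used here. Their range, 1.47 to 19.92, fits a log2 scale. Of 28846 features, 6640 control features were left out and 22206 transcript clusters were tested. Genes were named through the platform annotation (19572 clusters with 1 symbol, 2634 with none or more than 1, which were left without a name). In R 4.3.3, limma 3.58.1 estimated 1 mean per genotype from the 9 arrays together, with empirical Bayes moderation, two-sided tests and Benjamini-Hochberg adjustment over all 22206 clusters. Errors are SDs over 3 arrays or SEs of the model, as stated, and precision is limited by how few arrays there are. A level counts as above background only relative to the negative-control median of its array, which negative controls exceed widely. The fit was tested on simulated data.

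The members and lists were chosen with earlier results of these data known. All 10 members are named, and of each other Wnt list the paralogs of members, called genes and the 3 genes of largest lowest margin over the negative-control median. Those of the closing observations were chosen after their values were seen. Tried as alternatives were a floor on the mean (3.44 or 5.15), quantile scaling, centring on array medians, array weights, robust moderation with a trend, date code blocks (fixed or random), only the genotypes compared, other thresholds and leaving out arrays. No member had another cluster to try. Non-overlap of arrays without the pair that stood apart was added after seeing the data. Plots used matplotlib 3.10.9 (Python 3.11.15).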

Additional observations from a re-analysis of the deposited data

How the results depend on the processing

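The number of members called was 0 in each comparison under every alternative fit at an adjusted p of 0.05, and at 0.1. Among differences of members under alternatives, 426 kept their sign and 24 turned it. Many of the 426 could not turn. A floor on the mean, robust moderation with a trend and a fit of only the genotypes compared leave the estimate unchanged. Leaving out an array of the genotype not compared does so too. For Sfrp1 and Sfrp2 between Tbx1 mutants and wild type, leaving out arrays could not turn the sign, since the arrays did not overlap. Array weights gave 17 called clusters for the Tbx1 mutants against wild type and 4 between the mutants; with the date code as a fixed block there was 1 for the Tbx1 mutants against wild type; with only the genotypes compared the counts were 1 (Foxn1 mutants and wild type), 0 (Tbx1 mutants and wild type) and 2 (the mutants). At an adjusted p of 0.1 there were 2 between the mutants, and at an unadjusted p of 0.05 there were 898, 841 and 661, with 1, 1 and 0 members. With 1 array left out, and with the pair left out, counts ran from 0 to 3 (Foxn1 mutants and wild type; 3 without Tbx1 mutant replicate 1), 0 to 20 (Tbx1 mutants and wild type; 20 without wt replicate 2, 0 without wt replicate 3) and 0 to 3 (the mutants; 3 without wt replicate 1). Without the pair of arrays that stood apart, 1, 3 and 2 members did not overlap in the 3 comparisons, where 34.9%, 25.1% and 27.1% of all clusters did not.

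Some differences turned sign. Wnt5a between Foxn1 mutants and wild type was 0.036 with array weights and 0.087 with the fixed block, and -0.42 to 0.24 with arrays left out. With the fixed block, Dkk3 between Tbx1 mutants and wild type was -0.0086, and Sfrp1 and Sfrp2 between the mutants were 0.28 and 0.14. With arrays left out, differences between Foxn1 mutants and wild type ran from -0.070 to 0.42 for Axin2 and -0.61 to 0.58 for Dkk2; between Tbx1 mutants and wild type from -0.043 to 0.17 for Axin2 and -0.24 to 0.92 for Dkk3; and between the mutants from -0.22 to 0.0013 for Wnt4, -0.11 to 0.38 for Axin2, -0.027 to 1.00 for Dkk2 and -0.37 to 1.06 for Dkk3. The cause was not tested. No paired analysis was possible because the replicate numbers follow the order of the samples and pair nothing; the date code block stands in its place. Quantile normalization and median centring moved the median of all clusters by less than 0.1. Low signal limits the ligands most: no difference is given for Wnt5b and Wnt11, and Wnt4 and Wnt5a stood near the negative-control median.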

Other observations

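Some genes of the pathway lists, chosen here after their values were seen, had arrays without overlap between a mutant and wild type. This also held for 8.29% of all clusters between Foxn1 mutants and wild type and 9.45% between Tbx1 mutants and wild type. Bambi, a decoy receptor of TGF-beta signalling that also responds to Wnt signals, read 7.0, 7.41 and 8.08 on the wt arrays, 8.82, 9.01 and 8.18 on the Foxn1 mutant arrays and 8.81, 8.36 and 9.44 on those of the Tbx1 mutants. Every mutant array lay above every wild type array, and its difference from wild type was 1.17 ± 0.37 and 1.37 ± 0.37 (SE, n = 3 per genotype; limma adjusted p = 1.00 for both). Ror1, a receptor of Wnt5a, read 5.87, 5.81 and 6.51 on the wt arrays, 6.53, 7.10 and 6.18 on the Foxn1 mutant arrays and 7.68, 7.05 and 6.87 on those of the Tbx1 mutants. Its Tbx1 mutant arrays lay above all wild type arrays, with a difference of 1.13 ± 0.32 (limma adjusted p = 1.00). Fzd7, a Frizzled receptor, read 9.0, 8.62 and 9.19 on the wt arrays, 9.60, 9.93 and 9.37 on the Foxn1 mutant arrays and 9.19, 9.26 and 9.37 on those of the Tbx1 mutants, and both mutants lay above all wild type arrays. Its difference from wild type was 0.70 ± 0.23 in the Foxn1 mutants and 0.34 ± 0.23 in the Tbx1 mutants, whose lowest array stood less than 0.01 above the highest wild type array (limma adjusted p = 1.00 for both).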
